A study of Rattus norvegicus with 8 samples.

Results

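The aldo-keto reductase genes Akr1c1, Akr1c2, Akr1c18, Akr1a1, Akr1b8, Akr1b10, Akr7a2 and Akr7a3 were followed in rat liver arrays. They were taken as all probes other than controls whose array gene name is one of these 8, which gave 17 of 46883 probes and 8 of 25512 gene names. The genes had been picked with the difference between the diets already known, so that difference is given below as a description and carries no test. Liver RNA came from male Sprague Dawley rats, an outbred laboratory strain, labelled at 180 to 200 g. In the high-fat group, 4 samples came from animals on a diet with 60% fat for 12 weeks, and in the control group 4 samples came from animals on a normal diet over an equal period. The labels name no altered gene and no drug for either group. The series is about what accompanies insulin resistance brought on by such a diet. Each sample was hybridised to 1 one-colour Agilent array of 60-base probes. The labels do not say whether the samples are separate animals, so every error below is the spread between these samples.

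Aldo-keto reductases are soluble enzymes that use NADPH to reduce aldehydes and ketones to alcohols. The AKR1C branch acts mainly on steroids, as hydroxysteroid dehydrogenases, and sits in a cluster of related genes. Akr1a1 is the general aldehyde reductase and makes gulonate on the way to ascorbate in rodents, the AKR1B branch is related to aldose reductase, and the AKR7A branch reduces aflatoxin dialdehyde and succinic semialdehyde. Several family members are known targets of the oxidative stress factor NRF2.

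The 8 arrays shared 1 slide, and each of its 2 rows held 2 control and 2 high-fat arrays. The share of probes well above background ran from 50.4% (control 1) to 71.9% (control 4), and high-fat 1 had 56.4%. All 10 hepatocyte markers were well above background on every array, with a summed log2 level of 9.22 to 9.65 in control and 9.23 to 9.55 in high-fat samples. The summed level of 6 stellate cell markers was -0.52 to -0.33 in control and 0.58 to 0.80 in high-fat samples, that of 5 macrophage markers 4.24 to 4.59 and 3.17 to 3.99, that of 4 erythroid markers 4.81 to 6.17 and 6.17 to 6.84, and that of 6 lymphocyte markers -1.27 to -0.81 and -2.19 to -1.66. For 6 cholangiocyte markers it was -0.23 to 0.52 and -0.76 to -0.28. The stellate markers did not move together: Lrat, well above background on no control array, and Reln were past the threshold as higher, Des had a change of -0.70 and Pdgfrb -0.01. The lymphocyte marker Ms4a1 and the cholangiocyte marker Sox9 were well above background on none of the 8 arrays by the probe used. Of 6 markers of adrenal or ovarian steroid-making cells, Cyp11b1 and Nr5a1 were not well above background on any array, and the summed level was -3.64 to -3.18 in control and -3.67 to -3.03 in high-fat samples. Their part in the values below was not tested. In bulk tissue, fewer cells of a type and less RNA per cell cannot be told apart.

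Akr1c1 and Akr1c2 were higher in every high-fat sample than in any control sample, and no other member separated the groups. Of the 17 probes, 15 from 7 genes were well above background on at least 4 arrays and entered the fit, 14 of them on all 8 arrays. The 4 probes past an adjusted p of 0.05 in limma were both probes of Akr1c1 and both of Akr1c2, all higher, and the same 4 did not overlap between the groups. Of all 31545 tested probes, 0.907% passed the threshold, 0.377% as higher, and 10.6% did not overlap between the groups. No member probe passed as lower, and none was lower at an unadjusted p under 0.05. The members had been chosen on this contrast, so nothing is read from their count. It fell to 1 without control 1 and without control 2, to 2 without control 4, high-fat 1 or high-fat 3, and to 0 without high-fat 2 or high-fat 4, and it stayed at 4 without control 3. Without the 2 arrays with the fewest probes above background, control 1 and high-fat 1, the count was 0. The changes of the members without these 2 arrays are given below.

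**Figure D1:**
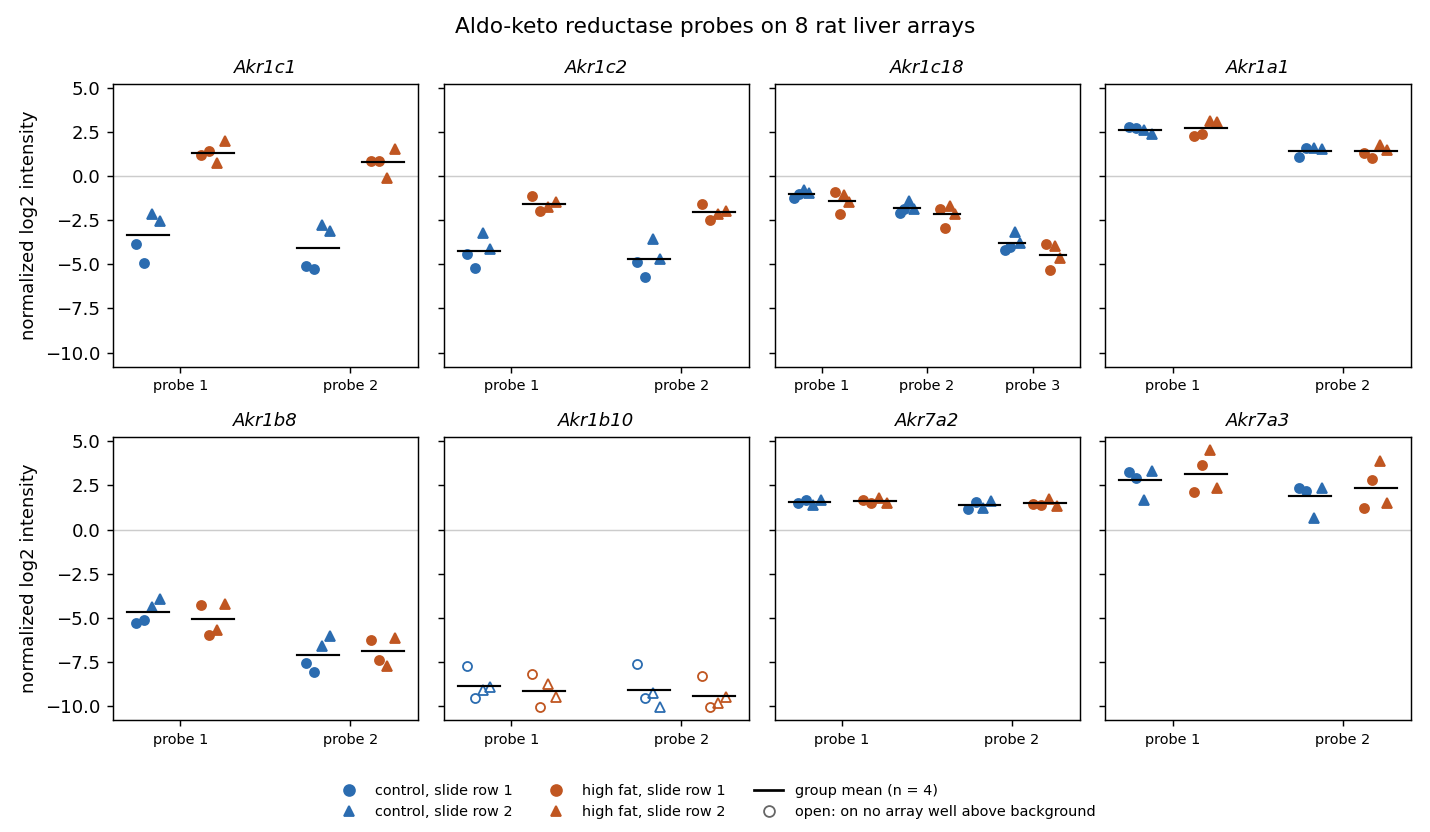
Normalized log2 intensity (vertical axis) of all 17 member probes on 4 control and 4 high-fat arrays, 1 panel per gene, with circles for slide row 1, triangles for slide row 2 and a bar for the group mean. The high-fat points of Akr1c1 and Akr1c2 lie above all their control points, the groups overlap for the other genes, and the open points of Akr1b10 were not well above background on any array.

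Akr1c1 is listed by RefSeq under the older names Akr1c6 and Hsd17b5, the latter a 17-beta hydroxysteroid dehydrogenase. Its first probe, A_43_P17435, maps to chr17:77084347-77084406 on the rn4 build, and its second, GT_Rn_GE_00059174, has no coordinates in the files. The probes overlap by 43 bases, of which 42 are identical, so they read almost the same stretch of transcript and are not independent measurements of the gene. The last 30 bases of the overlap are shown with the differing base in capitals. Counted from 1 at the 5′ end of the printed stretch, the substitution from the first to the second probe is A26G.
Akr1c1 probe 1: atctacaagcaaggaagcaaaaactAttta
Akr1c1 probe 2: atctacaagcaaggaagcaaaaactGttta

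The first Akr1c1 probe read normalized log2 intensities of -3.86, -4.91, -2.15 and -2.54 in control 1 to 4 and 1.19, 1.42, 0.72 and 1.97 in high-fat 1 to 4. A value of 0 is the array's 75th percentile over the probes that every array read well above background. The control samples were low and unequal, with a 6.75-fold range between them, and the high-fat samples were all high with a 2.38-fold range. The means were -3.37 ± 1.26 in control and 1.33 ± 0.52 in high-fat samples (SD, n = 4 each). The change was 4.69 ± 0.58 (SE) on the log2 scale with a 95% interval of 3.37 to 6.02, or 25.9-fold (10.4 to 64.7). The second probe read -5.11, -5.29, -2.79 and -3.14 in control 1 to 4 and 0.87, 0.83, -0.11 and 1.54 in high-fat 1 to 4. It showed the same order of low and high controls, and a change of 4.87 ± 0.62 (SE), or 29.1-fold (10.9 to 77.9). In the first slide row the changes of the first and the second probe were 5.69 and 6.05, and in the second row they were 3.69 and 3.68. Both controls of the first row were lower than both of the second, while the high-fat arrays of the rows overlapped. Whether the rows differ was not tested. After normexp, another background correction, the changes were 4.29 and 4.20, and without control 1 and high-fat 1 they were 4.57 and 4.49.

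Akr1c2, the neighbour of Akr1c1 on chromosome 17, was higher as well, by less. Its mapped probe, A_44_P323773, lies at chr17:77041458-77041517 (rn4). It is printed whole because the question for this pair is whether a probe of one gene could read the other.
Akr1c2: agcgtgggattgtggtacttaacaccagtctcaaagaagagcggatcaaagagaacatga

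No ungapped alignment of at least 30 bases between a probe of Akr1c1, Akr1c2 or their neighbour AKR1C3l1 and a probe of another of the 3 was above 44.4% identity, over 12 pairs. The array's design notes list no second transcript for any of these probes. Probes from different places in 2 related transcripts need not align, even where one of them could read the other gene. The alignments therefore cannot decide that question. Whole transcripts were not compared, so reading of a close paralog by these probes was not tested. The Akr1c2 probe GT_Rn_GE_00037090 read -4.40, -5.22, -3.20 and -4.13 in control 1 to 4 and -1.14, -1.96, -1.77 and -1.49 in high-fat 1 to 4. As with Akr1c1, control 2 was the lowest and control 3 the highest of the controls. The means were -4.24 ± 0.83 and -1.59 ± 0.36 (SD, n = 4 each), a change of 2.65 ± 0.39 (SE) with a 95% interval of 1.75 to 3.54, or 6.26-fold (3.37 to 11.6). The mapped probe read -4.89, -5.73, -3.57 and -4.71 in control and -1.56, -2.47, -2.14 and -1.99 in high-fat samples, with a change of 2.69 ± 0.42, or 6.44-fold (3.33 to 12.4). Both probes gave nearly the same pattern over the arrays. The changes were 3.26 and 3.30 in the first slide row and 2.03 and 2.08 in the second, 2.08 and 1.87 after normexp, and 2.44 and 2.47 without control 1 and high-fat 1.

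Akr1c1 and Akr1c2 also varied together among the controls. Over the 8 arrays, Pearson's r between probes of the pair was 0.96 to 0.97, which includes the difference between the diets. After each group's mean was taken away it was 0.72 to 0.82, against 0.96 between the Akr1c1 probes and 0.99 between the Akr1c2 probes. That likeness lay in the controls, where both genes were lowest in control 2 and highest in control 3. Among the high-fat arrays Akr1c1 was highest in high-fat 4 and Akr1c2 in high-fat 1, and the orders differed. The points share the arrays, their scaling and the slide rows. Among the other members, the deviations of Akr1c1 probe 1 had an r of 0.58 and 0.82 with those of the Akr1b8 probes. The r was -0.46 and -0.51 with Akr7a3 and -0.50 and -0.37 with Akr7a2. The Akr1b8 probe with 0.82 was well above background on only 4 arrays. These values rest on 8 arrays, and whether they differ from 0 was not tested.

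**Figure D2:**
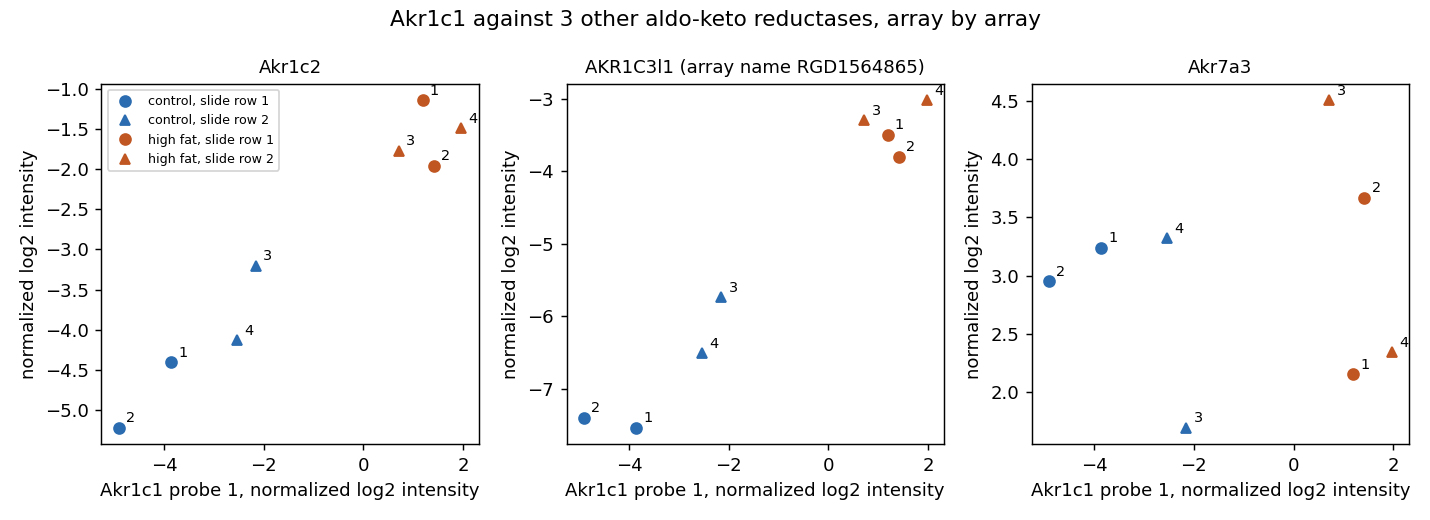
Normalized log2 intensity of Akr1c1 probe 1 (horizontal axis) against Akr1c2, AKR1C3l1 and Akr7a3 (vertical axes), 1 point per array with its replicate number, circles for slide row 1 and triangles for slide row 2. Akr1c2 and AKR1C3l1 rise with Akr1c1 over the 8 arrays (r of 0.97 and 0.98) and among the controls, while the 4 high-fat points show no such order, and Akr7a3 does not rise with Akr1c1 (r of 0.05).

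Akr1c18, which RefSeq now names Akr1c3, encodes the hydroxysteroid dehydrogenase that inactivates progesterone. It lies in the same cluster and had values slightly lower on the high-fat diet that overlapped the controls with all 3 of its probes. The probe GT_Rn_GE_00223261 read -1.26, -1.02, -0.81 and -0.95 in control and -0.93, -2.13, -1.06 and -1.47 in high-fat samples. High-fat 2 was the lowest array, while high-fat 1 was brighter than 3 of the controls. The change was -0.39 ± 0.26 (SE) with a 95% interval of -0.98 to 0.21. The probe at chr17:77284120-77284179 changed by -0.37 ± 0.29 (-1.02 to 0.28). The third probe, whose 60 bases span 1033 bases of the genome (chr17:77276610-77277642, rn4) and so cross an exon junction, changed by -0.65 ± 0.35 (-1.46 to 0.16). High-fat 2 was the lowest array on these probes too, at -2.97 and -5.30. For the third probe the interval reaches from a 0.363-fold to a 1.11-fold level. Without high-fat 2 the 3 changes were -0.14, -0.10 and -0.37, and without control 1 and high-fat 1 they were -0.63, -0.57 and -0.98.

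Akr1a1, the aldehyde reductase of ascorbate synthesis, stayed within the spread of the samples. Its probe without coordinates, GT_Rn_GE_00195274, read 2.76, 2.74, 2.61 and 2.38 in control and 2.30, 2.40, 3.11 and 3.04 in high-fat samples. High-fat 1 was below all controls and high-fat 2 below 3 of them, while high-fat 3 and 4, in the second slide row, were above all controls, with changes of -0.40 and 0.58 within the rows and 0.09 ± 0.22 (-0.41 to 0.58) over both. The mapped probe, A_42_P570919 at chr5:136923270-136923329 with 3 spots per array, read 1.11, 1.57, 1.60 and 1.51 against 1.32, 1.05, 1.75 and 1.47. It changed by -0.05 ± 0.19 (-0.48 to 0.37) and by -0.16 and 0.05 within the rows. The rows differed less on this probe, and the r between the probes was 0.48 over 8 arrays. Without control 1 and high-fat 1 the changes of the probes were 0.27 and -0.14.

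Akr1b8 and Akr1b10 are aldose reductase-like genes that lie close together on chromosome 4, and both were dim. The Akr1a1 probe without coordinates and the mapped Akr1b8 probe are printed to show the longest run that they share, 13 bases in capitals. The design notes list Akr1b10 as the next best hit of that Akr1a1 probe, and also of the Akr1b8 probe without coordinates, there with 82.46% identity over 57 bases.
Akr1a1: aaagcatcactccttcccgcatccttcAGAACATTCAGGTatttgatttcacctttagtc
Akr1b8: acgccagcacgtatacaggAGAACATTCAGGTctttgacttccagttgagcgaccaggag

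Both Akr1b10 probes, one of them at chr4:61771202-61771261 (rn4), were not well above background on any of the 8 arrays, and no fold is given. Their measured values ran from -10.08 to -7.63, with control 1 and high-fat 1 the highest in each group, which are also the arrays with the fewest probes above background. The mapped Akr1b8 probe, A_44_P426107, spans 669 bases (chr4:61724364-61725032) and read -5.28, -5.15, -4.41 and -3.92 in control and -4.26, -5.99, -5.70 and -4.22 in high-fat samples. High-fat 1 and 4 lay among the brighter controls and high-fat 2 and 3 were below all of them. The change was -0.35 ± 0.48 (-1.45 to 0.76). The other Akr1b8 probe was well above background on 2 of 4 arrays in each group and changed by 0.21 ± 0.52 (-0.98 to 1.40), so the probes differ in sign. After normexp it was -0.09. Without high-fat 2 the mapped probe changed by -0.03, and without control 1 and high-fat 1 the changes of the mapped and the other probe were -0.80 and -0.16. The intervals reach from a 0.365-fold to a 1.69-fold level on the mapped probe and from 0.508-fold to 2.63-fold on the other.

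Akr7a2, which reduces succinic semialdehyde, was the steadiest member. Its mapped probe, A_42_P624333 (chr5:158104829-158105391, 563 bases of the genome, 3 spots per array), read 1.50, 1.65, 1.42 and 1.68 in control and 1.67, 1.53, 1.77 and 1.52 in high-fat samples. The whole range over 8 arrays was 1.27-fold. The change was 0.06 ± 0.13 (-0.23 to 0.34), and that of the other probe 0.11 ± 0.16 (-0.25 to 0.47). As levels relative to control, the intervals of the probes run from 0.84-fold to 1.38-fold. Without control 1 and high-fat 1 the changes were 0.02 and 0.05.

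Akr7a3, the aflatoxin aldehyde reductase, varied most among the members that did not separate the groups. Its probe GT_Rn_GE_00173608 read 3.24, 2.95, 1.69 and 3.32 in control and 2.15, 3.67, 4.51 and 2.34 in high-fat samples. Control 3 was the lowest and high-fat 3 the highest array, both in the second slide row, and the range over the arrays was 7.08-fold. The change was 0.37 ± 0.58 (-0.95 to 1.68). The mapped probe, A_43_P11754 at chr5:158147285-158147343 with 3 spots per array, read 2.38, 2.18, 0.63 and 2.34 against 1.23, 2.82, 3.90 and 1.50. It had a 9.63-fold range and a change of 0.48 ± 0.63 (-0.97 to 1.92). The r between its probes was 1.0 over 8 arrays, and the SD between spots of one array was at most 0.193, so the differences between samples were far larger than the spread of the spots. Within the rows the changes had opposite signs, -0.19 and 0.92 for the first probe and -0.26 and 1.22 for the second. The changes of the first and the second probe were 0 and 0.06 without control 3, -0.08 and -0.03 without high-fat 3, and 0.85 and 1.02 without control 1 and high-fat 1.

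**Figure D3:**
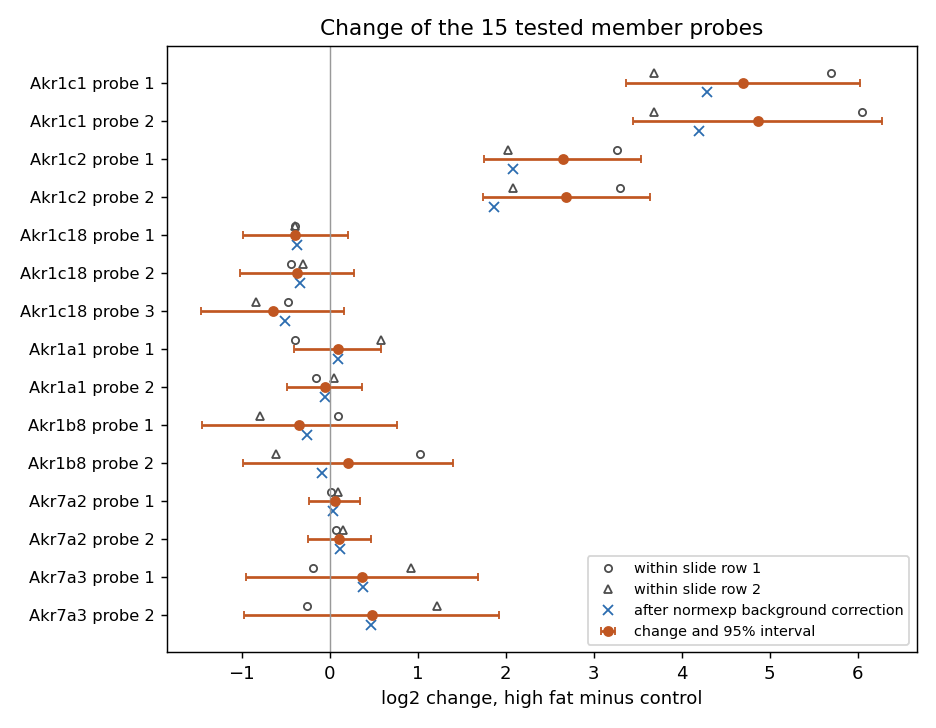
Log2 change, high fat minus control, of the 15 tested member probes (horizontal axis), with 95% intervals from limma (4 arrays per group), the changes within each slide row and the change after normexp background correction. The 4 probes of Akr1c1 and Akr1c2 lie between 2.65 and 4.87 and stay above 0 under each setting drawn, and the intervals of the other 11 probes include 0.

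The AKR1C genes lie side by side, so the cluster was described in gene order. The order is that of the RefSeq table (GRCr8), in which 11 aldo-keto reductase genes follow each other on chromosome 17 with no other protein-coding gene between. From one end they are Akr1e2 (Akr1cl2 on the array), Akr1c2, Akr1c1, AKR1C3l1 (RGD1564865 on the array), Akr1c12l1, Akr1c13, Akr1c19, Akr1c12, Akr1c3 (Akr1c18 on the array), Akr1c14 and Akr1c15. The genes Akr1c12 and Akr1c13 bear each other's names on the array. All probes of the first 4 genes were higher in every high-fat sample than in any control. Those of the other 7 genes overlapped, with changes from -0.65 to 0.42. The split into 4 and 7 was chosen after the values were seen. In the rn4 coordinates of the files the order differs, and the mapped RGD1564865 probe (chr17:76883215-76883274) is separated from Akr1c2 by Akr1c12l1 and Akr1cl2.

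AKR1C3l1 was the gene most like Akr1c1 over the 8 arrays (r of 0.979), so its change too is a description. Its mapped probe read -7.54, -7.40, -5.74 and -6.51 in control and -3.50, -3.80, -3.30 and -3.02 in high-fat samples. The controls of the first slide row were again the lower ones, as for Akr1c1. The change was 3.39 ± 0.39 (2.50 to 4.28), and 1.68 after normexp. The probe was well above background on 7 of 8 arrays, and the size of its change moved with the background correction. Its second probe shares 35 identical bases with the first and changed by 3.46 ± 0.49, or 1.85 after normexp. Akr1e2 encodes an anhydrofructose reductase. Its 3 probes had changes of 0.52 ± 0.12, 0.73 ± 0.14 and 0.77 ± 0.14, with adjusted p = 0.0993, adjusted p = 0.0569 and adjusted p = 0.0516 by limma, none past the threshold.

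**Figure D4:**
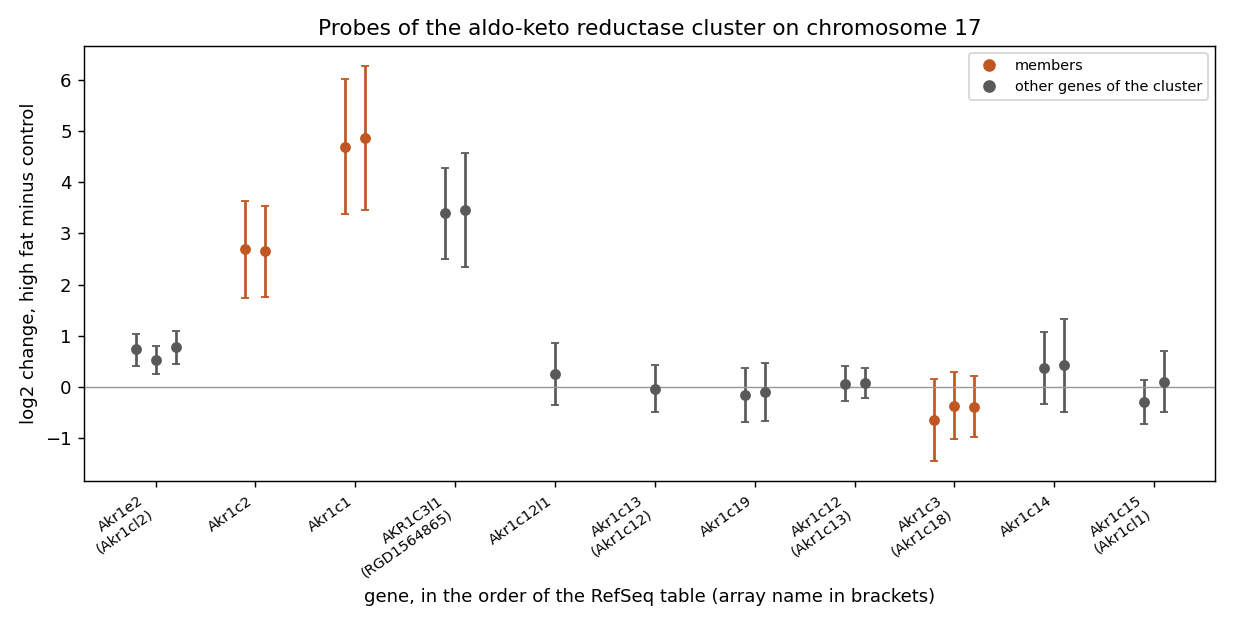
Log2 change, high fat minus control (vertical axis), with 95% intervals from limma (4 arrays per group) for each tested probe of the 11 aldo-keto reductase genes of chromosome 17, in RefSeq gene order, members coloured. Probes of the first 4 genes have intervals above 0, from 0.52 for Akr1e2 to 4.87 for Akr1c1, and the intervals of the other 7 genes include 0.

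Of 12264 named genes compared, 169 had an r of at least 0.9 with Akr1c1 probe 1 over the 8 arrays. After AKR1C3l1 the most alike were Pgbd5 (r of 0.979), Rgn (0.978), Kdm4b (0.977) and Nudt16 (0.975). Rgn encodes the gluconolactonase of ascorbate synthesis, and this probe of it changed by 0.86, from 3.63 to 4.49. Nudt16, a decapping and nucleotide hydrolase, changed by 0.92, from -2.97 to -2.05. The changes of Pgbd5 and Kdm4b were 0.51 and 0.53. After the group means were taken away, 38 genes had an r of at least 0.9, among them Dut (0.971), Gpn3 (0.965), Slc11a1 (0.959) and Mcl1 (0.955). The changes of these 4 genes between the diets ran from 0.10 for Gpn3 to 0.35 for Slc11a1. The points share the arrays, and these likenesses are a description.

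The rest of the family and the pathways around it were read from lists of genes. The list of other aldo-keto reductases leaves out AKR1C3l1, whose probes were both past the threshold, and Akr1c12l1. Of its 10 tested genes, 0 passed in limma and 2 had an unadjusted p under 0.05, with a median log2 change of -0.05. Over all 18594 tested genes the median was 0.003, 0.877% passed, and 15.6% had an unadjusted p under 0.05. Those 2 were Kcnab2, a potassium channel subunit of the family, with -0.66 (adjusted p = 0.0758 by limma; -0.38 after normexp), and Akr1cl2. Akr1b7, like Akr1b10, was well above background on no array. Akr1d1, the steroid reductase of bile acid synthesis, changed by -0.35 ± 0.22 (-0.85 to 0.14) on its tested probe. Its other probe was well above background on no array.

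Of 27 tested genes of the NRF2 pathway, none passed in limma, 6 had an unadjusted p under 0.05, and the median change was 0.06. Nfe2l2, which encodes NRF2 itself, had a change of 0.12 ± 0.37 (adjusted p = 0.916 by limma). The smallest p-values were those of the NADP-dependent malic enzyme Me1, with -1.07 ± 0.24 (adjusted p = 0.082), and the repressor Bach1, with 1.27 ± 0.32 (adjusted p = 0.12). After normexp Me1 passed, with -1.02 (adjusted p = 0.0406), while Bach1, well above background on 5 arrays, had 0.28 (adjusted p = 0.595). The NRF2 binding core, written TGACNNNGC and searched on both strands, was in 12.1% of the 33469 RefSeq (GRCr8) promoter windows, which cover the bases just before each gene's start and the first after it. None of the 7 member promoters among these windows holds it. No window of Akr1c1 is among them, so its promoter could not be searched. Absence of these letters from the window says nothing more.

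Of 26 tested genes of other carbonyl and aldehyde metabolism, 0 passed in limma, 5 had an unadjusted p under 0.05, and the median change was 0.14. The carbonyl reductase Cbr3 had -0.55 ± 0.14 (adjusted p = 0.114; -0.35 after normexp) and sorbitol dehydrogenase, Sord, 0.44 ± 0.14 (adjusted p = 0.18). Of 20 tested genes of steroid hormone metabolism, 1 rose and none fell, with a median of 0.17, against 0.35% of all tested genes higher. It was Hsd3b6, a 3-beta hydroxysteroid dehydrogenase, with 1.34 ± 0.22 (adjusted p = 0.0419 by limma) and all high-fat samples (-4.18 to -3.50) above all controls (-5.78 to -5.07). Its call was lost without any 1 of the 8 arrays, with adjusted p from 0.0717 without control 1 to 0.112 without high-fat 2, and its change after normexp was 0.75. The sulfotransferase Sult2a1 had 1.33 ± 0.51 (adjusted p = 0.263), and 0.84 without control 1.

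Ascorbate synthesis, the pathway that Akr1a1 serves, had 1 of 8 list genes past the threshold, against 0.877% of all tested genes, 5 at an unadjusted p under 0.05, and a median of 0.41. Of those 5, Crym (0.64), Ugp2 and Ugt2b1 are not enzymes of the path from glucuronate to ascorbate. Ugt2b1, a glucuronosyltransferase, had the largest change on the list (-1.67 ± 0.64, adjusted p = 0.269 by limma). Gulo, the enzyme of the last step, rose by 0.93 ± 0.16 (adjusted p = 0.0424 by limma), from 2.59 ± 0.23 to 3.52 ± 0.17 (SD, n = 4 each), with the same 0.93 in each slide row. The call held without control 4 (adjusted p = 0.0451) and was lost without any 1 of the other 7 arrays, with adjusted p from 0.0793 without high-fat 1 to 0.123 without control 3. Ugp2, which makes UDP-glucose, had 1.0 ± 0.22 (adjusted p = 0.0783), and passed after normexp with 0.99 (adjusted p = 0.0337) and without control 4 with 1.21 (adjusted p = 0.032). Rgn, on the brighter of its probes, had 0.91 ± 0.21 (adjusted p = 0.0896). Its other probe was named for its likeness to Akr1c1 over the 8 arrays. That likeness includes the difference between the diets, so the call of this probe is a description and carries no test. The probe was past the threshold with 0.86 (adjusted p = 0.0405 by limma). This call was lost without any 1 of the 8 arrays, with adjusted p from 0.0718 without control 2 to 0.109 without high-fat 2. Over all 5 lists together, 2 of 90 tested genes rose, none fell and 22 had an unadjusted p under 0.05, beside the shares of all genes given above.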

How the data were processed

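Cy3-labelled cRNA was made from 500 ng of total RNA with an oligo-dT primer, per the labels' protocols. Agilent Feature Extraction 10.7.3.1 gave the deposited spot intensity values, per the file headers, and subtracted background and marked outlier and dim spots. A value table deposited by the authors holds log2 values (its scaling is not given in the sources used here). Its columns were compared with the scanner values, scaled to the 75th percentile of all probes, and had an r of at least 0.9991 and at least 98.47% of values within 0.05, with no sign turned. Its column medians were -3.10, -3.21, -3.14 and -3.17 for control 1 to 4 and -3.14, -3.20, -3.16 and -3.20 for high-fat 1 to 4. It served as an alternative.

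Control and outlier spots were dropped, and none was saturated. Spots of a probe were averaged as log2 processed signal, minus each array's 75th percentile over the 22501 probes (48.0%) that were well above background throughout. The 31545 probes well above background on 4 or more arrays were fitted in R 4.3.3 by limma 3.58.1. P-values were adjusted by Benjamini-Hochberg over all of them, with a threshold of 0.05. The fit was tested on simulated data. A gene of a list stood for its tested probe with the highest mean. Accessions of 23035 tested probes (73.0%) matched the GRCr8 RefSeq table, used for names and gene order. Coordinates are the files' own (rn4).

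Sample titles gave the groups and replicate numbers. The rule for named genes took all member probes, the 5 named genes most like Akr1c1 by each of 2 measures, and from each list the members past the threshold and those with the 2 smallest p-values. Akr1b7, Akr1d1, Nfe2l2 and the other genes of the chromosome 17 cluster were named outside it, after their values were seen. One gene that the rule names is not reported here. The members and lists were chosen with earlier results of these data known. The alternatives were normexp background correction (offset 50) and changes of scaling, filter, variance model, array weights, blocks, threshold and arrays used.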

Additional observations from a re-analysis of the deposited data

Results flagged for a closer look

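In 4 of 70 groups of 4 arrays checked, 1 array stood far from the other 3, which chance alone gives in about 1 of 20 groups. For the mapped Akr7a3 probe, control 3 read 0.63 and the other controls 2.18 to 2.38. For the Akr1cl2 probe with the highest level, control 1 read 2.68 against 2.41 to 2.44. For Hsd3b6, control 1 read -5.78 against -5.09 to -5.07. For Sult2a1, control 1 read -0.02 against 1.82 to 2.12. In 3 of the 4 cases the array was control 1, which had the fewest probes well above background (50.4%), and whether the 2 are linked was not tested.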

How the results depend on the processing

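The changes of Akr1c1 and Akr1c2 kept their sign under each alternative tried, over 3.68 to 6.05 for the Akr1c1 probes and 1.87 to 3.30 for the Akr1c2 probes. The smallest Akr1c2 value came with normexp and the other extremes from single slide rows. The count of 4 member probes past the threshold was 0 without the filter on dim probes, 0 with a replicate block, 0 within slide row 1, 0 within slide row 2 and 0 without the 2 dimmest arrays, and 0 to 4 when 1 array was left out. At an unadjusted p under 0.05 it was 4 or 5 in each of these. The 286 probes became 10 without the filter, 527 with only probes well above background on all 8 arrays, 543 with an intensity trend and robust moderation, 1 with a replicate block, 167 with slide row as a block, 0 within slide row 1, 0 within slide row 2, 25 without the 2 dimmest arrays, 838 at an adjusted p under 0.10, and 23 to 154 with 1 array left out. The 2 list genes became 5 after normexp, 0 without the filter, 4 with probes above background on all arrays, 6 with trend and robust moderation, 0 with a replicate block, 0 with slide row as a block, 0 within slide row 1, 0 within slide row 2, 0 without the 2 dimmest arrays, 7 at an adjusted p under 0.10, and 0 to 2 with 1 array left out, where limma gave 11 to 24 at an unadjusted p under 0.05 wherever the count was 0. The cause of these shifts was not tested, other than that single rows and left-out arrays leave fewer samples. The labels do not say whether the replicate numbers pair the arrays. Deviations of same-numbered arrays had an r of -0.12, 0.26, 0.23 and 0.01, and 1 of 4 control arrays was most like its own number. So few arrays cannot decide whether they are paired. The signal over background limits Akr1b8 and Akr1b10, and 4 arrays a group limit all the genes. The sizes of the Akr1c2 and AKR1C3l1 changes moved with the background correction as well. On their mapped probes they went from 2.69 to 1.87 and from 3.39 to 1.68 after normexp.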
